A study of Anthurium andraeanum with 18 samples.

Results

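GIGANTEA, LATE ELONGATED HYPOCOTYL (LHY) and REVEILLE 8 (RVE8) are genes of the plant circadian clock, and their transcripts were followed in heated and unheated leaves of the ornamental aroid Anthurium andraeanum. The RNA-seq table holds 158,487 assembled genes, and 4 of them were taken by their gene identifiers: GIGANTEA (TRINITY_DN63245_c1_g2), LHY (TRINITY_DN63222_c1_g3), a second entry described as LHY (TRINITY_DN55890_c0_g2) and RVE8 (TRINITY_DN63484_c2_g1). They were chosen by their measured TPM in all 6 groups of libraries, which were already known. Their differences between groups are therefore given as a description with no test, and tests are reported only for other clock and photoperiod genes. A plant material called MH in the sample titles and a second called Ken each had 3 groups: controls at 25 °C, leaves after 3 days at 38/33 °C (day/night) and leaves after a further 3 days at 40/35 °C. No label explains these names. The plants were in full flower and were grown in chambers with 12 h of light and 12 h of dark. Heated plants spent 3 days at 25 °C before the first step, so the 40/35 °C leaves had also passed through 38/33 °C. The groups are called MH control, MH 38, MH 40, Ken control, Ken 38 and Ken 40, with 3 libraries in each and 18 in all. Whether the 3 biological replicates of a group were separate plants is not stated in the titles, so p-values describe the spread among these libraries.

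The clock of land plants, known best from Arabidopsis, is a loop of genes that repress each other in turn over the day. LHY and its close relative CCA1 are MYB-like repressors with transcripts that peak around dawn, and RVE8 is a related MYB-like protein that activates genes of the afternoon and evening. GIGANTEA is a large protein with a transcript that peaks late in the day, which stabilises the F-box protein ZEITLUPE and, with FKF1, links the clock to flowering by day length. A level of any of these transcripts therefore depends on the hour of sampling. The labels do not give the hour, so time of day, plant age and temperature cannot be told apart in any difference below.

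Libraries held 15,845,190 to 22,867,268 estimated counts. Levels are the deposited TPM, a share of all transcripts that corrects for transcript length, with mean ± SD over n = 3 libraries. Log2 changes ± SE come from an edgeR model of the counts with TMM factors, which ran from 0.684 in a Ken control library to 1.54 in an MH 40 library, so a fitted change of heated leaves against their control lies below the change in TPM. Leaf identity was checked with 42 entries of chlorophyll a-b binding proteins and Rubisco small chain or activase, of which 8 to 18 were at 0 in a library. Their summed level was 131,509 to 150,919 TPM in MH control, 1,848 to 29,155 TPM in MH 38 and 311 to 714 TPM in MH 40. In Ken control it was 92,220 to 107,061 TPM, in Ken 38 15,235 to 18,399 TPM and in Ken 40 1,163 to 1,598 TPM. These leaf markers moved with temperature, and their part in the clock gene levels was not tested. In bulk leaf RNA, fewer cells of a type and less RNA per cell cannot be told apart. MH 38 replicate 3 stood apart from its group, with 29,155 TPM of leaf markers against 1,848 and 3,266 TPM in replicates 1 and 2, and values without it are given where they change an order, a sign or a count or move a value by much.

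LHY was lowest in Ken control and highest in Ken 38. It had 41.3, 58.0 and 29.5 TPM in MH control, 47.1, 49.2 and 72.0 TPM in MH 38, and 20.1, 21.8 and 19.9 TPM in MH 40. In Ken control it had 14.9, 9.50 and 16.3 TPM, in Ken 38 113, 118 and 112 TPM, and in Ken 40 19.3, 44.9 and 40.1 TPM. All 3 Ken 38 libraries lay above every other library, and all 3 Ken control libraries below every other library, while MH 38, MH control and Ken 40 overlapped as neighbours in the order of means. Ken 40 overlapped MH 40 as well. The Ken 38 mean of 114 ± 3.01 TPM was 8.43 times the Ken control mean of 13.6 ± 3.58 TPM, with a fitted log2 change of 2.41 ± 0.24. Ken 40, at 34.8 ± 13.6 TPM, had a fitted log2 change of 1.11 ± 0.23 against the same controls and of -1.30 ± 0.23 against Ken 38.

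In MH the LHY levels ran otherwise. MH 40 averaged 20.6 ± 1.04 TPM, against 42.9 ± 14.3 TPM in MH control, with no overlap and a fitted log2 change of -1.69 ± 0.24. Against MH 38 the MH 40 leaves stood lower too, at -1.41 ± 0.24. MH 38 averaged 56.1 ± 13.8 TPM and overlapped MH control. Here the TPM ratio of 1.31 and the fitted log2 change of -0.29 ± 0.23 had opposite signs, and the fitted value was 0.53 with library totals as the only scaling. No direction is read for LHY in MH 38. Without MH 38 replicate 3, the highest of its group, the MH 38 mean was 48.1 TPM and the fitted change -0.49.

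**Figure D1:**
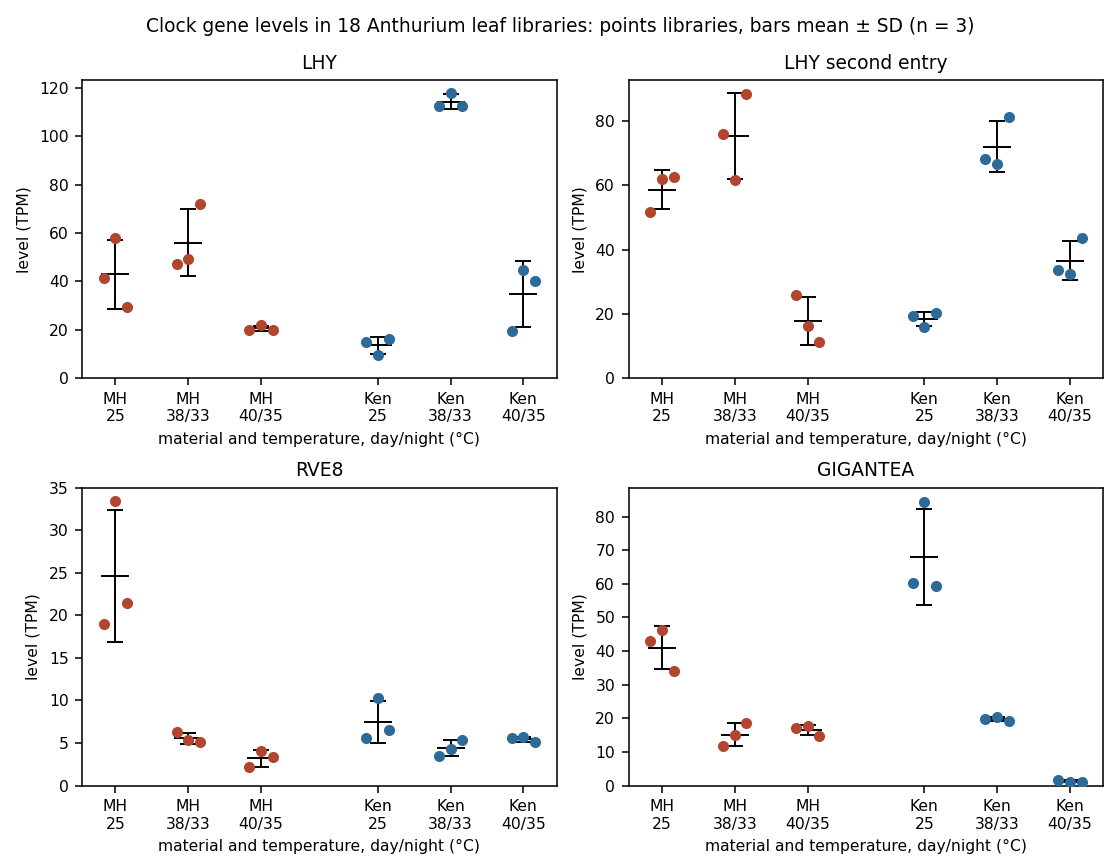
Level in TPM (vertical axes, starting at 0) of LHY, the second LHY entry, RVE8 and GIGANTEA in the 18 leaf libraries, by material and temperature; points are libraries, bars the mean ± SD of 3. LHY reaches 112 to 118 TPM in Ken 38, RVE8 stands highest in MH control at 19.0 to 33.5 TPM, and GIGANTEA is at 1.04 to 1.67 TPM in Ken 40.

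The second LHY entry had its highest mean TPM at 38/33 °C in each material, though in MH the 38/33 °C libraries overlapped the control. Its levels were 51.8, 61.8 and 62.4 TPM in MH control, 76.0, 61.7 and 88.4 TPM in MH 38, and 25.7, 16.3 and 11.1 TPM in MH 40. In Ken control it had 19.4, 15.98 and 20.1 TPM, in Ken 38 68.2, 66.7 and 81.2 TPM, and in Ken 40 33.6, 32.5 and 43.6 TPM. MH 38 and Ken 38 overlapped at the top of the order and Ken control and MH 40 at the bottom. MH control and Ken 40 lay between, apart from each other and from their neighbours in that order. Ken 38 averaged 72.0 ± 7.98 TPM, against 18.5 ± 2.20 TPM in Ken control, a fitted log2 change of 1.49 ± 0.23, and Ken 40 averaged 36.5 ± 6.11 TPM, a change of 0.57 ± 0.23. MH 40 averaged 17.7 ± 7.42 TPM, against 58.7 ± 5.997 TPM in MH control, a fitted log2 change of -2.51 ± 0.24. MH 38, at 75.4 ± 13.3 TPM, overlapped MH control by 1 library. Without MH 38 replicate 3 its mean was 68.9 TPM, below the Ken 38 mean, so the order of these groups rests on that library. Its fitted change of -0.33 ± 0.23 turned to 0.48 with library totals as the only scaling and was -0.53 without MH 38 replicate 3, and no direction is read there either. Between the materials at 38/33 °C the second entry had overlapping groups and a fitted log2 difference of -0.09 ± 0.23, MH minus Ken, where LHY had -0.95 ± 0.23 with no overlap. Without MH 38 replicate 3 these differences were -0.30 and -1.16.

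The materials also differed before any heat. All 3 MH control libraries lay above all 3 Ken control libraries for LHY, the second LHY entry and RVE8, and below them for GIGANTEA. The fitted log2 differences, MH minus Ken, were 1.75 ± 0.24 for LHY, 1.72 ± 0.23 for the second entry, 1.75 ± 0.28 for RVE8 and -0.73 ± 0.21 for GIGANTEA. For scale, 16.3% of all 70,022 tested genes had every MH control library above every Ken control library in TPM, and 18.8% had every one below. The same shares higher and lower for heated libraries over their own controls were 43.9% and 10.4% at 38/33 °C and 55.6% and 17.9% at 40/35 °C in MH, and 37.9% and 15.3%, then 36.3% and 19.4%, in Ken. Between heat steps they were 24.2% and 15.6% in MH and 20.4% and 26.6% in Ken, and between materials 27.1% and 15.9% in MH 38 against Ken 38 and 42.7% and 18% in MH 40 against Ken 40. The genes were chosen with these contrasts known, so nothing is read from the shares.

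RVE8 was highest in MH control and at 10.3 TPM or below in every other library. It had 19.0, 33.5 and 21.5 TPM in MH control, 6.27, 5.30 and 5.08 TPM in MH 38, and 2.14, 4.12 and 3.32 TPM in MH 40. In Ken it had 5.61, 10.3 and 6.5 TPM in the control, 3.46, 4.30 and 5.34 TPM in Ken 38, and 5.55, 5.68 and 5.11 TPM in Ken 40. MH control stood apart from every other group, and each pair of neighbours below it in the order of means overlapped. MH 38 averaged 5.55 ± 0.633 TPM and MH 40 3.19 ± 0.996 TPM, against 24.6 ± 7.72 TPM in MH control, with fitted log2 changes of -2.91 ± 0.29 and -3.76 ± 0.30. In Ken the fitted changes were -1.30 ± 0.28 in Ken 38, where no library overlapped the control, and -0.91 ± 0.28 in Ken 40, where they did. Ken 40 averaged 5.45 ± 0.299 TPM, Ken 38 4.37 ± 0.942 TPM and Ken control 7.45 ± 2.46 TPM. The precision is lowest for this gene, since 66 to 1015 counts stand behind a library's value.

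GIGANTEA was lower in every heated library than in every control library of both materials. Its levels were 42.9, 46.3 and 33.9 TPM in MH control, 11.9, 14.99 and 18.6 TPM in MH 38, and 17.1, 17.7 and 14.7 TPM in MH 40. In Ken control it had 60.2, 84.4 and 59.2 TPM, in Ken 38 19.9, 20.5 and 19.1 TPM, and in Ken 40 1.67, 1.04 and 1.15 TPM. At 38/33 °C the fitted log2 changes were near each other, -2.20 ± 0.22 in MH 38 and -2.27 ± 0.22 in Ken 38, and the difference of the responses, MH minus Ken, was 0.07 ± 0.30. Without MH 38 replicate 3 the MH 38 change was -2.52 and that difference -0.25, and without MH control replicate 3 it was -0.06.

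At 40/35 °C the materials parted at GIGANTEA. MH 40 averaged 16.5 ± 1.59 TPM and overlapped MH 38 at 15.1 ± 3.36 TPM, a fitted log2 change of 0.09 ± 0.21 between the heat steps, which was 0.37 without MH 38 replicate 3. Ken 40 averaged 1.29 ± 0.337 TPM, against 19.8 ± 0.706 TPM in Ken 38 and 67.9 ± 14.3 TPM in Ken control. The fitted changes of Ken 40 were -3.80 ± 0.24 against Ken 38 and -6.07 ± 0.26 against Ken control, and that of MH 40 against MH control was -2.11 ± 0.22. Between the heated groups, MH 40 stood 12.8 times as high as Ken 40 in mean TPM, with a fitted log2 difference of 3.23 ± 0.23. In counts, Ken 40 libraries held 105 to 213 for GIGANTEA and Ken control libraries 6460 to 10173.

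Within a library, the ratio of 2 genes does not depend on how libraries are scaled. LHY over GIGANTEA was 0.962, 1.25 and 0.869 in MH control, 3.97, 3.28 and 3.88 in MH 38, and 1.17, 1.23 and 1.35 in MH 40. In Ken control it was 0.247, 0.113 and 0.275, in Ken 38 5.68, 5.75 and 5.89, and in Ken 40 11.6, 43.2 and 34.8. So the ratio in MH 40 overlapped that in MH control, and the ratio in Ken 40 lay above that in every other library. The second LHY entry over GIGANTEA gave 1.503, 0.919 and 0.755 in MH 40, overlapping 1.21, 1.34 and 1.84 in MH control. The same ratio was 20.1, 31.2 and 37.9 in Ken 40 and 0.322, 0.189 and 0.340 in Ken control. RVE8 over LHY was 0.133, 0.108 and 0.0706 in MH 38, against 0.461, 0.576 and 0.728 in MH control. In Ken 38 it was 0.0307, 0.0365 and 0.0475, against 0.377, 1.08 and 0.400 in Ken control. Between the LHY entries the ratio of the second to the first was 0.605, 0.566 and 0.722 in Ken 38, the group where LHY was highest, and 1.30, 1.68 and 1.24 in Ken control.

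**Figure D2:**
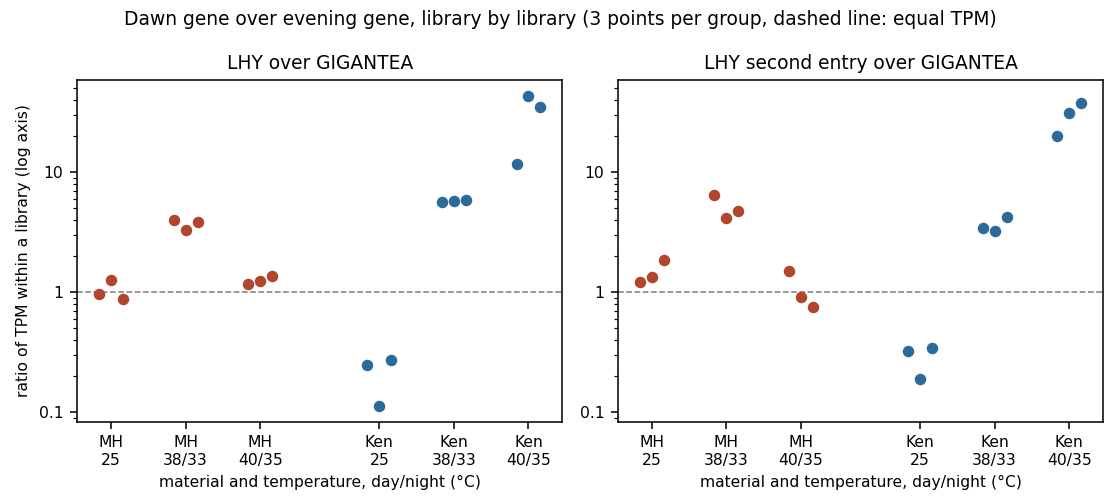
Ratio of TPM of LHY (left) and of the second LHY entry (right) to GIGANTEA within each of the 18 libraries, on a log axis; each point is a library and the dashed line marks equal levels. Ken 40 lies highest in each panel, at 11.6 to 43.2 on the left and 20.1 to 37.9 on the right, while MH 40 lies around the dashed line with MH control.

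The responses of the dawn genes differed in the same direction between materials at each heat step. The difference of the log2 changes, MH minus Ken, was -2.70 ± 0.33 for LHY, -1.82 ± 0.32 for the second LHY entry and -1.61 ± 0.39 for RVE8 at 38/33 °C. At 40/35 °C it was -2.81 ± 0.33, -3.08 ± 0.33 and -2.85 ± 0.40 in the same order. GIGANTEA had 3.96 ± 0.31 at 40/35 °C, the opposite sign. These differences share the libraries of each control, and the MH and Ken controls themselves stood apart. In MH 38 against Ken 38 the second LHY entry (-0.09 ± 0.23) and RVE8 (0.14 ± 0.28) overlapped, while LHY (-0.95 ± 0.23) did not. The controls differed by 1.72 for the second LHY entry and 1.75 for RVE8. For these genes the differences of response at 38/33 °C therefore mostly hold the gap between the controls.

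How libraries are scaled moved every fitted change of these genes. Over every gene tested, the median of the log2 changes was 0.73 in MH 38, 1.03 in MH 40, 0.42 in Ken 38 and 0.30 in Ken 40, each against its own control. Over described genes the medians were -0.08 in MH 38, -0.29 in MH 40, -0.07 in Ken 38 and -0.10 in Ken 40. Scaling by library totals alone put the medians of every gene at 1.55 in MH 38, 2.02 in MH 40, 0.97 in Ken 38 and 0.76 in Ken 40. On that scale GIGANTEA had -1.39 in MH 38, -1.11 in MH 40, -1.70 in Ken 38 and -5.60 in Ken 40. LHY had -0.69 in MH 40, 2.99 in Ken 38 and 1.59 in Ken 40, and the second LHY entry -1.49, 2.07 and 1.05. RVE8 had -2.09 in MH 38, -2.76 in MH 40, -0.74 in Ken 38 and -0.44 in Ken 40. Of the 16 fitted changes of the 4 genes against their controls, only those of the LHY entries in MH 38 changed sign among the scalings run.

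**Figure D3:**
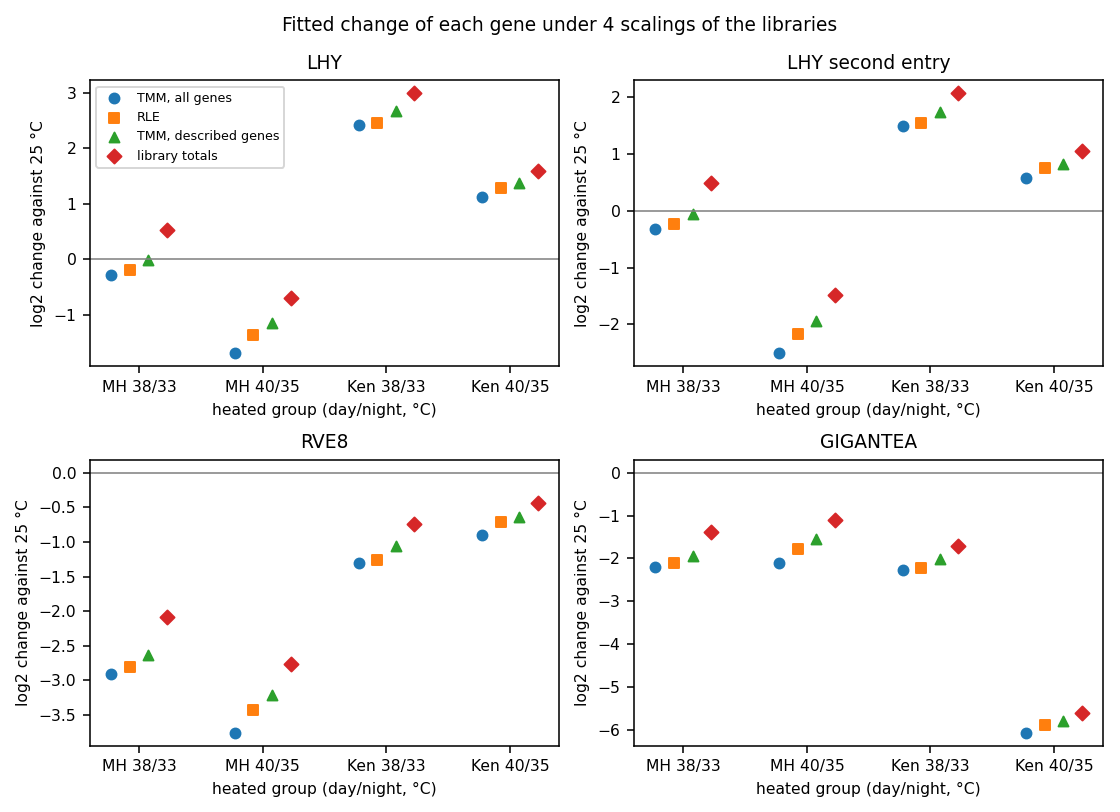
Fitted log2 change against the 25 °C control (vertical axes) of the 4 genes in each heated group, with 4 ways of scaling libraries. Library totals give the highest value throughout; the LHY entries in MH 38 cross 0, from -0.29 and -0.33 with TMM to 0.53 and 0.48 with library totals.

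The deposited values also hold a hint of which transcripts of a gene were counted, because the ratio of counts to TPM gives the mean transcript length. LHY is a deposited gene of 3538 bases with 10 transcripts, and its implied length ran from 1967 bases in a Ken 38 library to 3175 bases in a Ken 40 library. In Ken 38 it was 1967 to 2261 bases, against 2072 to 2777 bases in Ken control, which overlap. The second LHY entry (2557 bases, 8 transcripts) kept within 2293 to 2512 bases in all 18 libraries, RVE8 (1224 bases, 4 transcripts) within 1104 to 1185 bases and GIGANTEA (4987 bases, 4 transcripts) within 4136 to 4825 bases. For RVE8 the length was 1129 to 1141 bases in MH 38 and 1122 to 1128 bases in MH 40, against 1181 to 1185 bases in MH control, with no overlap. In Ken it was shorter in heated leaves too, at 1104 to 1106 bases in Ken 38 and 1106 to 1109 bases in Ken 40. Ken control had 1155 to 1159 bases, again with no overlap. The share of all genes with such a gap in implied length was not taken, so nothing is read from it.

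Over the 18 libraries LHY and its second entry followed each other, with a Pearson correlation of 0.84 on log2(TPM + 1). The correlation was -0.19 between GIGANTEA and LHY, 0.38 between GIGANTEA and RVE8 and -0.02 between LHY and RVE8. These are descriptions over libraries that share 6 groups, so most of each value reflects group means. Among 15,523 described genes with a mean of at least 5 TPM, the entry most like LHY was CCA1 (TRINITY_DN51203_c0_g1), at a correlation of 0.973. This entry carries the symbol CCA1 but is also described as an LHY homologue. Whether it is CCA1 or a further copy or fragment of LHY is not settled by the descriptions. The entry most like the second LHY entry was TRINITY_DN63222_c1_g1, the third entry with the symbol LHY and 745 bases long, at 0.972. Its identifier shares its first part with that of LHY, so reads may be split between fragments or close copies of 1 gene.

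**Figure D4:**
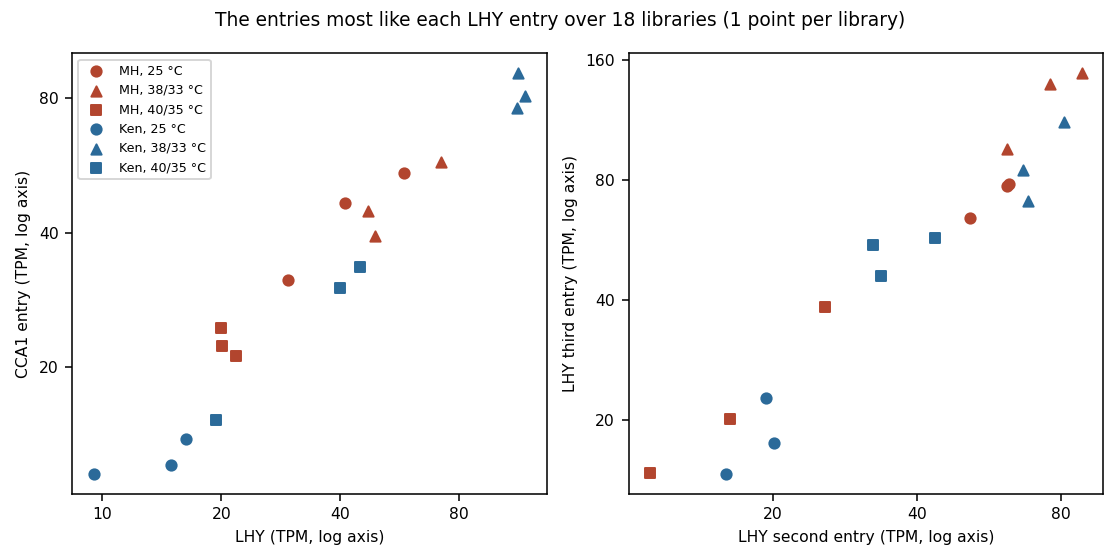
Left, CCA1 entry against LHY; right, the third LHY entry against the second, both in TPM on log axes, with 1 point per library, colour for material and shape for temperature. The correlations on log2(TPM + 1) are 0.973 and 0.972, and the Ken 38 libraries lie at the top of the left panel.

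Further down these rankings stood genes of other kinds. After CCA1, LHY was followed by a triacylglycerol lipase entry (TRINITY_DN62424_c1_g2) at 0.920, FRS5 (TRINITY_DN50082_c2_g2), a FAR1-related protein, at 0.908, the beta-glucanase GLC1 (TRINITY_DN59740_c0_g1) at 0.901 and the NF-Y subunit NFYA9 (TRINITY_DN48487_c0_g1) at 0.895. The second LHY entry was followed by the receptor kinase THE1 (TRINITY_DN58712_c1_g2) at 0.940, the auxin carrier PIN1B (TRINITY_DN47472_c0_g1) at 0.931, FAX4 (TRINITY_DN38184_c1_g2) at 0.924 and the lipid flippase ALA7 (TRINITY_DN59433_c0_g1) at 0.924. GIGANTEA was most like a G-type lectin receptor kinase (TRINITY_DN64034_c1_g1) at 0.965, a B2 protein (TRINITY_DN47567_c2_g1) at 0.953 and the brassinosteroid transcription factor BZR2 (TRINITY_DN41977_c1_g5) at 0.946. It ran most opposite to the cysteine proteinase inhibitor CYS6 (TRINITY_DN50933_c0_g3) at -0.972 and the small GTPase RABE1C (TRINITY_DN60671_c1_g3) at -0.967. RVE8 was most like RER6 (TRINITY_DN55981_c1_g1), a chloroplast protein, at 0.958 and the pectinesterase PME16 (TRINITY_DN59207_c0_g1) at 0.939, and ran most opposite to FLK (TRINITY_DN51275_c0_g3), an RNA-binding flowering regulator, at -0.955. With any 1 library left out, at least 3 of the 5 most like genes stayed for GIGANTEA and LHY, 4 for the second LHY entry and 2 for RVE8.

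The other genes of the clock were counted over 38 entries in 5 subgroups, all of them tested, with a call at a Benjamini-Hochberg adjusted p below 0.05 over 70,022 genes in edgeR's quasi-likelihood test. Of the 38, 11 rose and 12 fell in MH 38, while 30.1% of all tested genes rose and 17.3% fell. The median log2 change there was -0.21 for the list and 0.73 for all genes. In MH 40 against MH control 10 rose and 19 fell, beside 42.7% and 24.6% of all genes, with medians of -0.54 and 1.03. In Ken 38 against Ken control 14 rose and 12 fell, beside 20.3% and 15.9% of all genes, with medians of 0.08 and 0.42. In Ken 40 against Ken control 7 rose and 21 fell, beside 25.1% and 20.7% of all genes, with medians of -0.98 and 0.30. The list entries are all described genes. Medians over described genes alone were -0.08 in MH 38, -0.29 in MH 40, -0.07 in Ken 38 and -0.10 in Ken 40. The shares called were not taken over described genes alone. Library totals as the only scaling gave splits of 22 higher and 5 lower in MH 38, 17 and 14 in MH 40, 16 and 8 in Ken 38 and 10 and 17 in Ken 40, and TMM factors of the described genes gave 14 and 16 in MH 40. The 2 heat steps of a material share its control libraries.

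**Figure D5:**
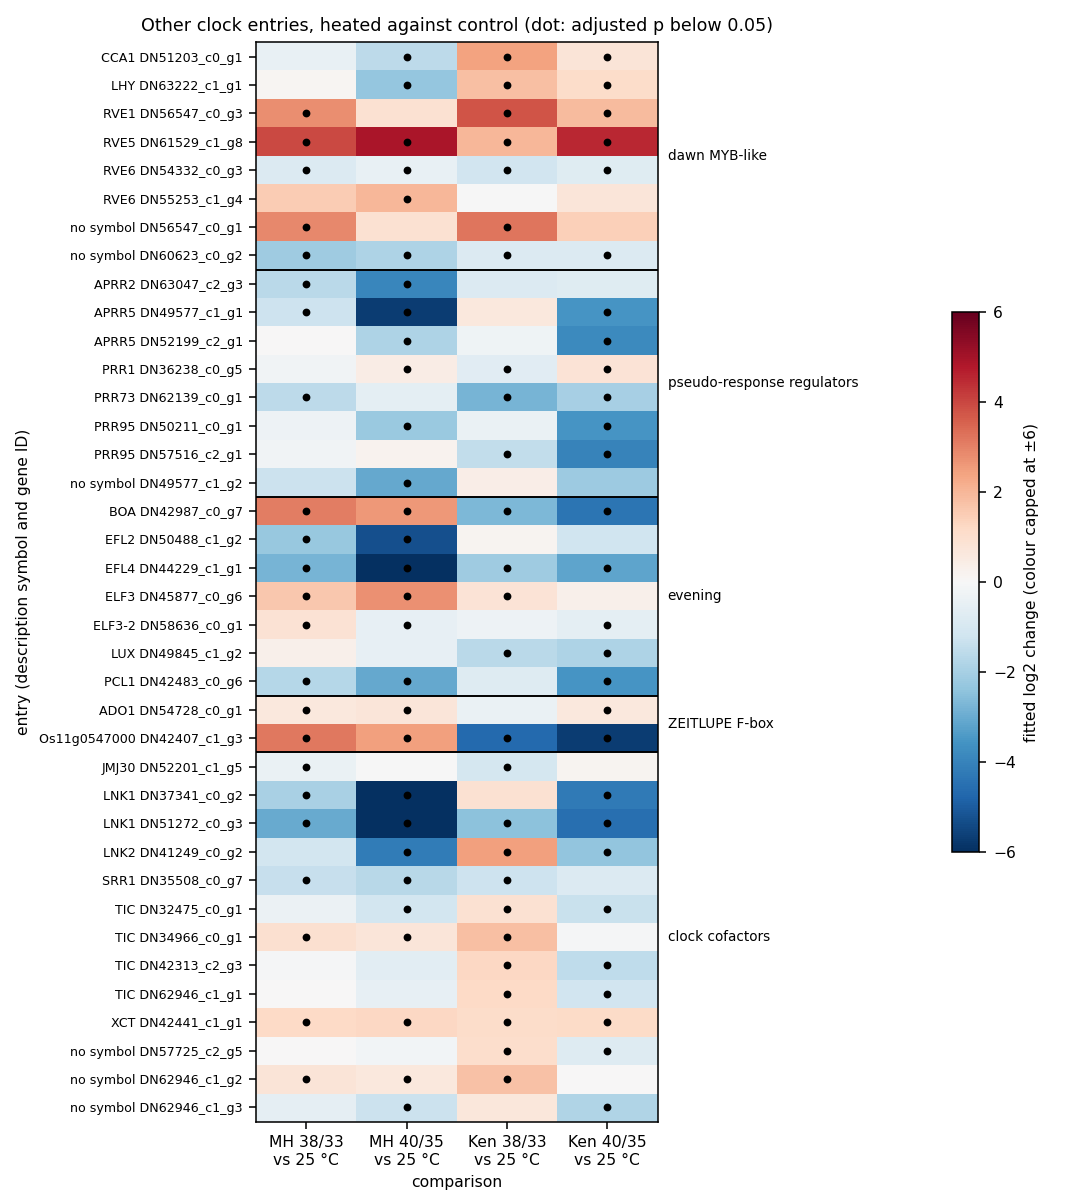
Fitted log2 change (colour, capped at 6 in each direction) of the 38 other clock entries in each heated group against its own 25 °C control, 4 columns in all; a black dot marks an adjusted p below 0.05 in edgeR, and lines part the 5 subgroups. The LHY and CCA1 rows are red in Ken 38 and blue in MH 40, and the LNK1 rows are blue at 40/35 °C in both materials.

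Among the 8 other dawn MYB-like entries, 3 rose and 2 fell in MH 38, 2 rose and 4 fell in MH 40, 5 rose and 2 fell in Ken 38, and 4 rose and 2 fell in Ken 40. Of all tested genes 30.1% rose and 17.3% fell in MH 38, and 42.7% and 24.6% in MH 40. These shares were 20.3% and 15.9% in Ken 38, and 25.1% and 20.7% in Ken 40. CCA1 had 46.6, 54.4 and 31.3 TPM in MH control, 44.7, 39.4 and 57.6 TPM in MH 38, and 22.3, 21.2 and 24.4 TPM in MH 40. Its Ken levels were 12.1, 11.5 and 13.8 TPM in the control, 91.0, 80.8 and 76.0 TPM at 38/33 °C and 15.2, 33.5 and 30.1 TPM at 40/35 °C. The order of group means is that of LHY, with Ken control lowest and Ken 38 highest. MH 38 overlapped MH control, and without MH 38 replicate 3 its CCA1 mean lies below that of MH control, so this order rests on that library. CCA1 rose in Ken 38 (log2 change 2.41 ± 0.26, adjusted p = 1.57e-07) and fell in MH 40 (-1.55 ± 0.25, adjusted p = 1.79e-05). Its call in Ken 40 (0.77 ± 0.25, adjusted p = 0.0149) was lost without Ken 40 replicate 2 or 3 or Ken control replicate 1 or 2, with values of 0.54 to 0.74. In MH 38 its change of -0.47 ± 0.25 had an adjusted p of 0.119, which was 0.0132 without MH 38 replicate 3. Since this entry follows LHY over the libraries and may be a copy of it, its p-values are not independent of the choice of LHY.

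The third LHY entry, at 89.0 ± 20.8 TPM in Ken 38 and 52.7 ± 5.89 TPM in Ken 40 against 18.3 ± 4.05 TPM in Ken control, rose at both steps (1.80 ± 0.29, adjusted p = 6.52e-05, and 1.12 ± 0.29, adjusted p = 0.0035). In MH 40 it fell, to 24.4 ± 12.4 TPM against 73.1 ± 7.89 TPM in MH control (-2.32 ± 0.30, adjusted p = 1.92e-06). In MH 38, at 128 ± 28.3 TPM, the fitted change was 0.11 ± 0.28 with an adjusted p of 0.772, and 0.92 with an adjusted p of 0.00912 on library totals. The third LHY entry may share reads with LHY and follows the second LHY entry, so the same limit holds for its p-values.

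RVE1 (TRINITY_DN56547_c0_g3), a relative of RVE8 that in Arabidopsis joins the clock to auxin synthesis, was near 1 TPM in both controls. It had 7.85, 3.70 and 14.5 TPM in MH 38, against 0.510, 0.890 and 0.970 TPM in MH control, and 21.96, 17.8 and 18.7 TPM in Ken 38, against 0.800, 1.58 and 0.740 TPM in Ken control. The groups did not overlap. It rose in MH 38 (2.81 ± 0.49, adjusted p = 0.000195, and 2.11 without MH 38 replicate 3), in Ken 38 (3.77 ± 0.50, adjusted p = 1.08e-05) and in Ken 40 (1.91 ± 0.48, adjusted p = 0.00332). In MH 40 the change was 0.89 ± 0.48 (adjusted p = 0.109), and it passed with RLE factors (1.23), library totals (1.89), TMM of described genes (1.43), no filter (0.88), a filter at 50 counts (1.11), DESeq2 (1.23) or without MH 38 replicate 2 (0.87). The highest of the RVE6 entries (TRINITY_DN54332_c0_g3) averaged 21.0 ± 1.09 TPM in Ken 38 and 26.7 ± 3.37 TPM in Ken 40, against 38.6 ± 3.64 TPM in Ken control, and fell in both (-1.15 ± 0.15, adjusted p = 1.48e-06, and -0.75 ± 0.14, adjusted p = 0.000218, the second lost on library totals at -0.27). In MH its sign depended on the scaling: -0.82 ± 0.14 in MH 38 against 0.02 on library totals, and -0.42 ± 0.14 in MH 40 against 0.58. In MH 40 all 3 libraries stood above the control in TPM, at 27.7 to 32.4 TPM against 22.6 to 27.7 TPM.

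Pseudo-response regulators repress LHY and CCA1 in turn from morning to evening. Of 8 entries, none rose and 3 fell in each 38/33 °C comparison, while at 40/35 °C 1 rose and 5 fell in each material. Over all tested genes 30.1% rose and 17.3% fell in MH 38, and 42.7% and 24.6% in MH 40. The Ken shares were 20.3% and 15.9% in Ken 38, and 25.1% and 20.7% in Ken 40. In these 4 comparisons 3 entries (MH 38), 6 (MH 40), 5 (Ken 38) and 6 (Ken 40) had an unadjusted p below 0.05. Of all 70,022 tested genes, 38,660 (MH 38), 49,277 (MH 40), 31,434 (Ken 38) and 36,697 (Ken 40) did so too. PRR73 (TRINITY_DN62139_c0_g1) fell to 2.72, 1.92 and 4.67 TPM in Ken 38 and 5.95, 3.91 and 3.42 TPM in Ken 40, against 13.8, 15.4 and 13.8 TPM in Ken control (-2.77 ± 0.31, adjusted p = 6.49e-07, and -2.01 ± 0.30, adjusted p = 1.82e-05). PRR95 (TRINITY_DN57516_c2_g1) fell in Ken 38 (-1.47 ± 0.22, adjusted p = 1.33e-05) and in Ken 40, to 2.23, 1.76 and 1.57 TPM against 19.0, 26.1 and 17.8 TPM in Ken control (-4.02 ± 0.24, adjusted p = 2.44e-11). In MH 40 the same entry had 10.8, 15.1 and 20.8 TPM, against 6.75, 8.34 and 7.88 TPM in MH control. The fitted change there was 0.20 ± 0.22 (adjusted p = 0.416), which passed on library totals (1.20), with TMM factors of the described genes (0.74), RLE factors (0.53) or DESeq2 (0.53).

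The higher of the APRR5 entries (TRINITY_DN49577_c1_g1) fell at 40/35 °C in both materials. It had 1.31, 2.0 and 1.55 TPM in MH 40, against 37.5, 58.95 and 35.7 TPM in MH control (-5.70 ± 0.54, adjusted p = 7.40e-07), and 2.56, 3.71 and 4.13 TPM in Ken 40, against 25.1, 26.5 and 26.3 TPM in Ken control (-3.54 ± 0.48, adjusted p = 4.48e-05). PRR1 (TRINITY_DN36238_c0_g5), the evening member also called TOC1, rose in Ken 40 to 29.2 ± 5.16 TPM, against 10.8 ± 2.03 TPM in Ken control (0.84 ± 0.17, adjusted p = 0.000324). In MH 40 it averaged 23.5 ± 1.31 TPM, against 9.80 ± 1.70 TPM in MH control (0.43 ± 0.17, adjusted p = 0.0281). That call was lost with no filter (0.42) and without any of 13 libraries in turn, with values from 0.32 to 0.45. APRR2 (TRINITY_DN63047_c2_g3) matched the list's pattern by its name but is not a clock gene. Its implied transcript length was 200 to 257 bases in MH 40, against 1347 to 1695 bases in MH control, so its TPM of 58.5 ± 14.5 in MH 40 and 72.9 ± 6.55 in MH control overlapped while its counts fell (-3.91 ± 0.41, adjusted p = 1.14e-06).

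Evening genes include the ELF3, ELF4 and LUX proteins, which in Arabidopsis form a complex that represses daytime genes at night. Of 7 entries beside GIGANTEA, 3 rose and 3 fell in MH 38, 2 rose and 4 fell in MH 40, 1 rose and 3 fell in Ken 38, and none rose and 5 fell in Ken 40. Of all tested genes 30.1% rose and 17.3% fell in MH 38, and 42.7% and 24.6% in MH 40. The Ken shares were 20.3% and 15.9% in Ken 38, and 25.1% and 20.7% in Ken 40. In Ken 40 6 of the evening entries had an unadjusted p below 0.05, beside 36,697 of all 70,022 tested genes. BOA (TRINITY_DN42987_c0_g7), a relative of LUX, moved apart between the materials. It rose in MH 40 to 1.26, 2.03 and 2.56 TPM, against 0.170, 0.130 and 0.260 TPM in MH control (2.62 ± 0.45, adjusted p = 3.21e-05). In Ken 40 it fell to 0.170, 0.430 and 0.440 TPM, against 5.83, 5.55 and 4.89 TPM in Ken control (-4.37 ± 0.44, adjusted p = 5.33e-08). EFL4 (TRINITY_DN44229_c1_g1), an ELF4-like entry, fell in Ken 40 to 0.780, 1.42 and 2.01 TPM, against 9.26, 11.2 and 8.06 TPM in Ken control (-3.17 ± 0.52, adjusted p = 3.21e-05). It had 0.07, 0.08 and 0.15 TPM in MH 40, against 7.08, 9.27 and 13.2 TPM in MH control. ELF3-2 (TRINITY_DN58636_c0_g1) had 9.69 ± 0.691 TPM in Ken 40, against 11.1 ± 1.002 TPM in Ken control, and fell in the counts (-0.60 ± 0.17, adjusted p = 0.00587) though its TPM overlapped the control. That call was lost with RLE factors (-0.41), library totals (-0.12), TMM of described genes (-0.34) and DESeq2 (-0.41), and its change of -0.51 ± 0.17 in MH 40 turned to 0.50 on library totals.

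The ZEITLUPE F-box subgroup held 2 entries. ADO1 (TRINITY_DN54728_c0_g1), which is ZEITLUPE, the partner of GIGANTEA, averaged 21.4 ± 2.13 TPM in MH 40, against 7.76 ± 0.627 TPM in MH control, and rose (0.71 ± 0.18, adjusted p = 0.00163). It also rose in Ken 40, at 27.8 ± 3.73 TPM against 13.7 ± 0.606 TPM in Ken control (0.63 ± 0.18, adjusted p = 0.00632). The other entry (TRINITY_DN42407_c1_g3), described as Adagio-like protein 3, the rice counterpart of FKF1, had the largest difference of heat responses between the materials among the 38 entries. It had 7.59, 7.53 and 1.58 TPM in MH 38 and 3.07, 4.35 and 2.68 TPM in MH 40, against 0.56, 0.45 and 0.1 TPM in MH control. Its Ken levels were 2.37, 2.54 and 1.53 TPM in Ken 38 and 1.45, 1.06 and 0.420 TPM in Ken 40, against 34.3, 44.3 and 38.8 TPM in Ken control. It rose in MH 40 (2.46 ± 0.60, adjusted p = 0.0028) and fell in Ken 40 (-5.69 ± 0.63, adjusted p = 6.78e-06). The direction was therefore that of GIGANTEA in Ken 40 and opposite to it in MH 40.

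Clock cofactors numbered 13 entries, of which 3 rose and 4 fell in MH 38, 3 rose and 6 fell in MH 40, 8 rose and 3 fell in Ken 38, and 1 rose and 8 fell in Ken 40. Beside them, 30.1% of all tested genes rose and 17.3% fell in MH 38, and 42.7% and 24.6% in MH 40. The Ken shares were 20.3% and 15.9% in Ken 38, and 25.1% and 20.7% in Ken 40. The LNK proteins are partners of RVE8. The entry called LNK1 here carries that symbol but is also described as LNK2, so its identity is not settled. LNK1 (TRINITY_DN51272_c0_g3) fell in each heated group, to 34.5, 30.3 and 66.2 TPM in MH 38 and 3.77, 5.54 and 3.85 TPM in MH 40, against 200, 195 and 235 TPM in MH control. Its Ken levels were 18.8, 24.1 and 32.9 TPM in Ken 38 and 5.33, 2.64 and 7.03 TPM in Ken 40, against 84.4, 84.0 and 82.0 TPM in Ken control. The log2 changes were -3.01 ± 0.38 (adjusted p = 2.05e-05, and -3.59 without MH 38 replicate 3) in MH 38 and -6.36 ± 0.45 (adjusted p = 1.75e-08) in MH 40. In Ken 38 and Ken 40 they were -2.45 ± 0.37 (adjusted p = 0.000107) and -4.53 ± 0.41 (adjusted p = 4.98e-07).

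LNK2 (TRINITY_DN41249_c0_g2) had 16.4, 13.7 and 40.6 TPM in MH 38 and 1.64, 3.86 and 4.06 TPM in MH 40, against 32.8, 34.5 and 31.0 TPM in MH control. In Ken it had 30.4, 28.9 and 39.1 TPM in Ken 38 and 0.330, 0.830 and 2.28 TPM in Ken 40, against 3.57, 4.58 and 4.25 TPM in Ken control. It rose in Ken 38 (2.46 ± 0.58, adjusted p = 0.00491) and fell in Ken 40 (-2.36 ± 0.60, adjusted p = 0.00615, and -3.35 without Ken 40 replicate 3) and in MH 40 (-4.20 ± 0.63, adjusted p = 7.86e-05). XCT (TRINITY_DN42441_c1_g1), the XAP5 timekeeper, rose to 79.8 ± 17.8 TPM in MH 40, against 18.7 ± 1.55 TPM in MH control, and to 57.5 ± 3.67 TPM in Ken 40, against 18.7 ± 1.62 TPM in Ken control (1.26 ± 0.20, adjusted p = 1.19e-05, and 1.17 ± 0.20, adjusted p = 4.84e-05). An entry described as TIC (TRINITY_DN62946_c1_g1, TIME FOR COFFEE), at 88.4 ± 12.2 TPM in Ken 38 and 19.0 ± 5.35 TPM in Ken control, rose in Ken 38 (1.22 ± 0.25, adjusted p = 0.000519) and fell in Ken 40 (-1.14 ± 0.25, adjusted p = 0.000748), though its TPM in Ken 40 overlapped the control. Several TIC entries may be fragments of 1 gene, so the count of cofactors is not one of separate genes.

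A photoperiod list was made by matching descriptions of CONSTANS-like, cyclic DOF factor and florigen-type proteins. It held 30 entries, of which 28 were tested, and many of its CONSTANS-like entries have no known place below GIGANTEA. The match also took in HD3B (TRINITY_DN50421_c0_g1), a rice relative of ELF3. In MH 38 4 rose and 10 fell, beside 30.1% and 17.3% of all genes, with a list median of -1.05 against 0.73 for all. In MH 40 4 rose and 19 fell, beside 42.7% and 24.6%, with medians of -3.82 and 1.03. In Ken 38 6 rose and 5 fell, beside 20.3% and 15.9%, with medians of -0.16 and 0.42. In Ken 40 4 rose and 18 fell, beside 25.1% and 20.7%, with medians of -2.62 and 0.30. Described genes alone, as all list entries are, had medians of -0.08 (MH 38), -0.29 (MH 40), -0.07 (Ken 38) and -0.10 (Ken 40). Library totals gave splits of 7 higher and 7 lower in MH 38, 8 and 16 in MH 40 and 9 and 3 in Ken 38, and TMM of described genes gave 7 and 3 in Ken 38. CDF2 (TRINITY_DN52345_c1_g4), of the cycling DOF repressors that GIGANTEA and FKF1 target in Arabidopsis, fell to 2.63, 4.74 and 3.35 TPM in MH 40, against 36.2, 44.8 and 40.1 TPM in MH control (-4.25 ± 0.27, adjusted p = 1.66e-11). It fell to 3.00, 3.34 and 3.87 TPM in Ken 40, against 37, 35.9 and 35.5 TPM in Ken control (-3.80 ± 0.26, adjusted p = 1.54e-10). COL13 (TRINITY_DN40197_c5_g1), a CONSTANS-like zinc finger protein, rose to 95.7, 162 and 133 TPM in MH 40, against 7.20, 6.62 and 6.04 TPM in MH control (3.56 ± 0.36, adjusted p = 4.02e-07). In Ken 40 it rose to 163, 163 and 150 TPM, against 26.1, 17.2 and 16.1 TPM in Ken control (2.57 ± 0.34, adjusted p = 1.44e-05). HD3A (TRINITY_DN42955_c0_g2), a rice-type florigen, had 0, 0.06 and 0 TPM in MH 40, against 2.08, 2.67 and 4.81 TPM in MH control. It fell in Ken 40 to 0.2, 0.05 and 0.68 TPM, against 5.73, 5.71 and 6.49 TPM in Ken control (-4.73 ± 0.85, adjusted p = 0.000116, and -5.88 without Ken 40 replicate 3).

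From the first heat step to the second, more clock entries fell than rose in each material: 4 rose and 14 fell in MH 40 against MH 38, beside 11.2% and 15% of all genes, and 5 rose and 19 fell in Ken 40 against Ken 38, beside 14.3% and 16.2%. The list medians were -0.70 and -1.65, against 0.15 and -0.02 for all tested genes and -0.22 and -0.02 for described genes. In the photoperiod list 3 rose and 14 fell in MH and 1 rose and 16 fell in Ken.

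Between the materials, 5 of the 38 clock entries were higher and 8 lower in MH control than in Ken control, beside 10.1% and 11.7% of all genes. In MH 38 against Ken 38 2 were higher and 13 lower, beside 19.9% and 14.7%, and library totals gave 8 and 9, RLE factors 5 and 10 and TMM of described genes 4 and 11. That count rests on single libraries, since 9 entries passed without MH 38 replicate 2 and 26 without MH 38 replicate 3. In MH 40 against Ken 40 10 were higher and 12 lower, beside 28.2% and 20.3%, while library totals gave 16 and 6, TMM of described genes 14 and 7 and RLE factors 13 and 9. In the photoperiod list 2 were higher and 6 lower between the controls, 1 and 9 at 38/33 °C and 3 and 5 at 40/35 °C. RLE factors and TMM of described genes each gave 5 and 5 between the controls and library totals 3 and 5. At 40/35 °C library totals gave 6 and 3 and TMM of described genes 5 and 3.

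The difference of the heat responses themselves, MH minus Ken, was tested for each of these entries. At 38/33 °C it was positive for 5 clock entries and negative for 7, beside 6.07% and 4.78% of all genes, with 8 and 3 on library totals. Without MH 38 replicate 3 the count of 12 became 24, with 6 positive and 18 negative. At 40/35 °C it was positive for 7 and negative for 8, beside 10.3% and 11.1%, with 15 and 6 on library totals and 12 and 7 with TMM factors of the described genes. CCA1 had -2.87 ± 0.35 (adjusted p = 2.29e-05) at 38/33 °C and -2.32 ± 0.35 (adjusted p = 5.42e-05) at 40/35 °C. The third LHY entry had -1.70 ± 0.40 (adjusted p = 0.00975) and -3.44 ± 0.41 (adjusted p = 6.99e-06). Both entries were also the most like an LHY entry over these libraries. The CCA1 entry is also described as an LHY homologue, and the third LHY entry may share reads with LHY. Their values are therefore not independent of the levels by which the LHY entries were chosen. Adagio-like protein 3 had 7.82 ± 0.85 (adjusted p = 8.29e-05) and 8.15 ± 0.86 (adjusted p = 1.70e-05), BOA 6.99 ± 0.62 (adjusted p = 7.12e-08) and PRR95 4.22 ± 0.32 (adjusted p = 8.25e-09) at 40/35 °C, the sign of GIGANTEA there. Adagio-like protein 3 and BOA were near the floor in MH control and far higher in Ken control, and their differences include that gap. LNK2 had -3.57 ± 0.80 (adjusted p = 0.0129) at 38/33 °C and -4.26 without MH 38 replicate 3. In the photoperiod list 3 were positive and 5 negative at 38/33 °C and 4 and 6 at 40/35 °C, with 3 and 3, and 6 and 2, on library totals.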

How the data were processed

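RNA from leaves was extracted with Trizol and sequenced as Illumina libraries, per the labels' protocols, and adapters were trimmed with cutadapt 1.9, per the submitters' processing notes. No source used here names the assembler or the quantifier, though identifiers have the form that Trinity writes. The deposited table gives an estimated count and, in unlabelled columns, a value read as TPM because it sums to 967,894 to 991,008 per library. The estimated counts were made by the authors with no normalisation, and 89.8% to 96.7% of them per library are whole within 1e-06. The TPM values were scaled by the authors for transcript length and library. Descriptions are those of the table, in which 39,786 of 158,487 genes carry one. Every value column was mapped to a library by its name.

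Counts were rounded and fitted with edgeR 4.0.16 in R 4.3.3 (filterByExpr with min.count 10 and min.total.count 15, TMM, robust quasi-likelihood). The 6 group means were fitted over 18 libraries with 12 residual degrees of freedom, and 11 comparisons were made. The fit kept 70,022 genes, among them all 4 clock genes described and 29,143 described genes, with a common biological coefficient of variation of 0.39. The code was tested on simulated data. The 4 genes and the lists were chosen with earlier results of these data known. Lists are text patterns on the descriptions. Named entries have a mean of at least 1 TPM, with full values for the highest of each subgroup. Likeness was ranked for the 5 most like and the 2 most opposite described genes, of which the text names only some. The other entries given with full values were chosen after their values were seen. The SE of a log2 change is its absolute value divided by the square root of the F statistic of the quasi-likelihood test. Intervals and SE cover the spread between libraries, and a low level rests on few counts.

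Alternatives were DESeq2 1.42.0, RLE factors, library totals, no filter, a filter at 50 counts, only the groups compared, a replicate block, leaving out each of the libraries, a threshold of 0.01 on the adjusted p, and a pseudocount of 0.1 for likeness. Added after seeing the data were TMM factors of the described genes, APRR2 left out and 1 entry per symbol. Values were tabulated with pandas 2.3.3, and matplotlib 3.10.9 drew the plots.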

Additional observations from a re-analysis of the deposited data

Results flagged for a closer look

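LHY and its second entry stood on opposite sides of their controls in the materials at 40/35 °C. All 3 MH 40 libraries lay below all 3 MH control libraries for LHY (log2 change -1.69) and for the second entry (-2.51), while all 3 Ken 40 libraries lay above all 3 Ken control libraries (1.11 and 0.57). The genes were chosen with these levels known, so the difference was not tested.

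Other clock entries had a difference of the heat responses, MH minus Ken, that passed in edgeR. The third LHY entry had -1.70 at 38/33 °C and -3.44 at 40/35 °C, and CCA1 had -2.87 and -2.32. Both follow the LHY entries over the 18 libraries and are not independent of the levels used to choose those. LNK2 had -3.57 at 38/33 °C. PRR95 had 4.22 and BOA 6.99 at 40/35 °C, and Adagio-like protein 3 had 7.82 at 38/33 °C and 8.15 at 40/35 °C. The MH control levels of BOA and Adagio-like protein 3 were near the floor and far below those of Ken control, and their differences include that gap. Between MH 38 and Ken 38 no ZEITLUPE F-box entry was called. In all, 12 of the 38 other clock entries passed at 38/33 °C and 15 at 40/35 °C. Over all tested genes 6.07% were positive and 4.78% negative at 38/33 °C, and 10.3% and 11.1% at 40/35 °C. The count of 12 became 24 without MH 38 replicate 3.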

How the results depend on the processing

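The 16 log2 changes of the 4 genes against their controls kept their sign under every alternative run, except for both LHY entries in MH 38. On library totals those were 0.53 for LHY and 0.48 for the second entry. Library totals gave GIGANTEA -1.39 in MH 38, -1.11 in MH 40, -1.70 in Ken 38 and -5.60 in Ken 40, LHY -0.69 in MH 40, 2.99 in Ken 38 and 1.59 in Ken 40, the second LHY entry -1.49 in MH 40, 2.07 in Ken 38 and 1.05 in Ken 40, and RVE8 -2.09 in MH 38, -2.76 in MH 40, -0.74 in Ken 38 and -0.44 in Ken 40. TMM factors of the described genes gave GIGANTEA -1.56 in MH 40 and -2.02 in Ken 38, LHY -1.15 and 2.66, the second LHY entry -1.95 in MH 40, 1.74 in Ken 38 and 0.83 in Ken 40, and RVE8 -3.22 in MH 40. In MH 40, RLE factors and DESeq2 each gave -1.77 for GIGANTEA and -1.36 for LHY, and a filter at 50 counts gave -1.89 for GIGANTEA. DESeq2 and the filter also change the model or the genes kept, and the cause of these moves was not tested.

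Clock calls in MH 38 against Ken 38 numbered 8 with only those groups fitted and 9 at an adjusted p below 0.01, and 9 to 26 with 1 library left out. For the difference of responses at 38/33 °C they numbered 19 with a filter at 50 counts, 20 with DESeq2, 6 at an adjusted p below 0.01, and 8 to 24 with 1 library left out; the cause was not tested. Signs turned on library totals for CCA1 in MH 38 (0.34), RVE6 in MH 38 (0.018) and MH 40 (0.58), PRR95 in MH 38 (0.59) and ELF3-2 in MH 40 (0.50), and with TMM factors of the described genes for RVE6 in MH 40 (0.12), PRR95 in MH 38 (0.048) and ELF3-2 in MH 40 (0.045). With 1 library left out, the third LHY entry ran from -0.082 to 0.32 in MH 38 and PRR95 from -0.022 to 0.37 in MH 40. The count of clock calls without APRR2 or with 1 entry per symbol stayed within 1.5 times of the main count. Low counts limit RVE8, with 66 counts in its lowest library.

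No pairing was seen by the replicate numbers of the titles. Same-numbered libraries of a material had deviations that correlated at -0.046 to 0.0786 over 18 pairs, and 6 of 18 libraries correlated best with their own number. In MH 38 and MH control the library names carry other numbers than the titles. Pairing by those numbers was not checked, and the replicate block also follows the titles. With the replicate block, 26, 30 and 25 clock entries passed in Ken 38 against control, Ken 40 against control and Ken 40 against Ken 38, and 21, 29 and 16 in the same MH comparisons. Between the materials 13, 16 and 23 passed at 25 °C, 38/33 °C and 40/35 °C, and 13 and 14 for the difference of responses.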

Other observations

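Text patterns for animal and for pollen or flower markers gave no usable marker sums. The 8 animal-like matches summed to 49.5 to 173 TPM per library and were led by GLB3, a plant hemoglobin, at a mean of 52.8 TPM. The 19 pollen or flower matches summed to 67.8 to 159 TPM and were led by MS1, a methionine synthase, at 46.0 TPM. Among the matches, hemoglobin subunits described from mouse (Hbb-b1) and human (HBA1) averaged 2.36 and 2.52 TPM, and the anther gene LAT52 0.553 TPM. Genes without a description held 8.42% to 24.6% of the counts of a library.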
